A study of Homo sapiens with 6 samples.

Results

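The 46 genes described here encode the core of the PI3K, AKT, mTOR and AMPK signalling network: class I PI3K subunits, AKT and its neighbours, both mTOR complexes, the lysosomal Rag and Ragulator machinery, and AMPK with its upstream kinases. They were chosen by name, as the rows of the deposited count table whose symbol is one of 46 listed symbols, out of 24976 genes in all once rows of the same symbol were added together. Each of the 46 had 1 row, and all 46 passed the filter on low counts, as did 15638 genes of the whole table. The cells were LN229, a long-established line from a human glioblastoma. The 3 control libraries are labelled wild type and titled NC, and the 3 knockdown libraries came from the same line after small interfering RNA (siRNA) against GDH1 was transfected with a lipid reagent for 24 h. The protocol also prepares an NC mixture, but its content is not spelled out, and neither is whether the knockdown libraries share 1 siRNA, so effects of the siRNA other than on its target cannot be told apart from the knockdown. Each group's libraries are described as biological replicates.

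PI3K is a lipid kinase made of a catalytic and a regulatory subunit, and its product brings AKT to the membrane, where PDPK1 and the mTOR complex that contains RICTOR activate it. AKT relieves the brake that the TSC complex places on RHEB, the small GTPase that switches on the mTOR complex that contains RPTOR, called mTORC1. Amino acids act on the same complex through the Rag GTPases, which the Ragulator scaffold holds at the lysosome, while AMPK, a heterotrimer that senses falling ATP, restrains it. Active mTORC1 promotes translation through the S6 kinases and by releasing the cap-binding protein eIF4E from its binding proteins. Most of this control acts on proteins and their phosphorylation, which RNA counts do not measure.

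Library totals lay between 31201100 and 35619614 counts. For GLUD1, the gene of GDH1, control replicates 1 to 3 gave 3048, 2689 and 2813 counts and knockdown replicates 1 to 3 gave 727, 877 and 933, which left 28.4% of the control level. The line's labels were checked against marker genes. VIM, NES, CD44, SOX2 and S100B were abundant, with summed levels of the 7 glioma and progenitor markers between 5796.4 and 7084.7 CPM (counts scaled to library size), but GFAP, a classical astrocyte marker in the same list, was at 0.334 CPM in controls. Its members moved apart in the knockdown: S100B fell (log2 fold change -1.13, adjusted p = 1.07e-06), while SOX2 (0.78), CD44 (0.44), EGFR (0.40) and VIM (0.21) rose. The epithelial and endothelial markers were low. The 4 epithelial ones summed to at most 1.16 CPM with CDH1 and KRT5 at 0 throughout. The 4 endothelial ones summed to at most 3.05 CPM, with CDH5 at 0. The leukocyte list summed to between 13.7 and 17.1 CPM in controls and between 27.6 and 29.4 CPM in the knockdown, nearly all of it CD68, with AIF1 at 0 in every library and PTPRC at no more than 13 counts. The neuronal list was not low as a whole. It summed to between 158.7 and 168.7 CPM in controls and between 92.6 and 116.2 CPM in the knockdown. Most of the sum was MAP2, which fell from 112.3 to 60.7 CPM (log2 fold change -0.89). SYT1 was at 32.1 CPM and SNAP25 at 20 CPM in controls. SNAP25 fell (-0.39), while SYT1 was not called (-0.21). The defining marker RBFOX3 had at most 35 counts.

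Of the 46 genes, 7 rose and 13 fell at an adjusted p of 0.05 in edgeR's quasi-likelihood test, and 26 did not pass. The 7 that rose were PIK3CD, RICTOR, RHEB, RRAGC, EIF4E, PRKAA1 and PRKAG2. Those that fell were PIK3R3, AKT2, AKT1S1, SGK1, PHLPP1, DEPTOR, LAMTOR1, LAMTOR2, LAMTOR4, EIF4EBP1, EIF4EBP2, PRKAB1 and CAMKK2. Of all tested genes, 26.1% were called, 13.0% higher and 13.1% lower, against 43.5% of the network genes. The 3 knockdown libraries lay wholly above or below the 3 controls for 29 of the 46, where this held for 42.0% of all tested genes. The 46 were listed with earlier results of these data known, and the other tested genes were not matched to them in level. These shares are therefore a description, not a test. In bulk RNA, fewer cells of a kind and less RNA per cell cannot be told apart. The changes were mostly small. The median log2 fold change of the 46 was -0.07, and 0 over all tested genes. Among the 20 called genes the median absolute log2 fold change was 0.39, 15 were under 0.5 and only DEPTOR exceeded 1.

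**Figure D1:**
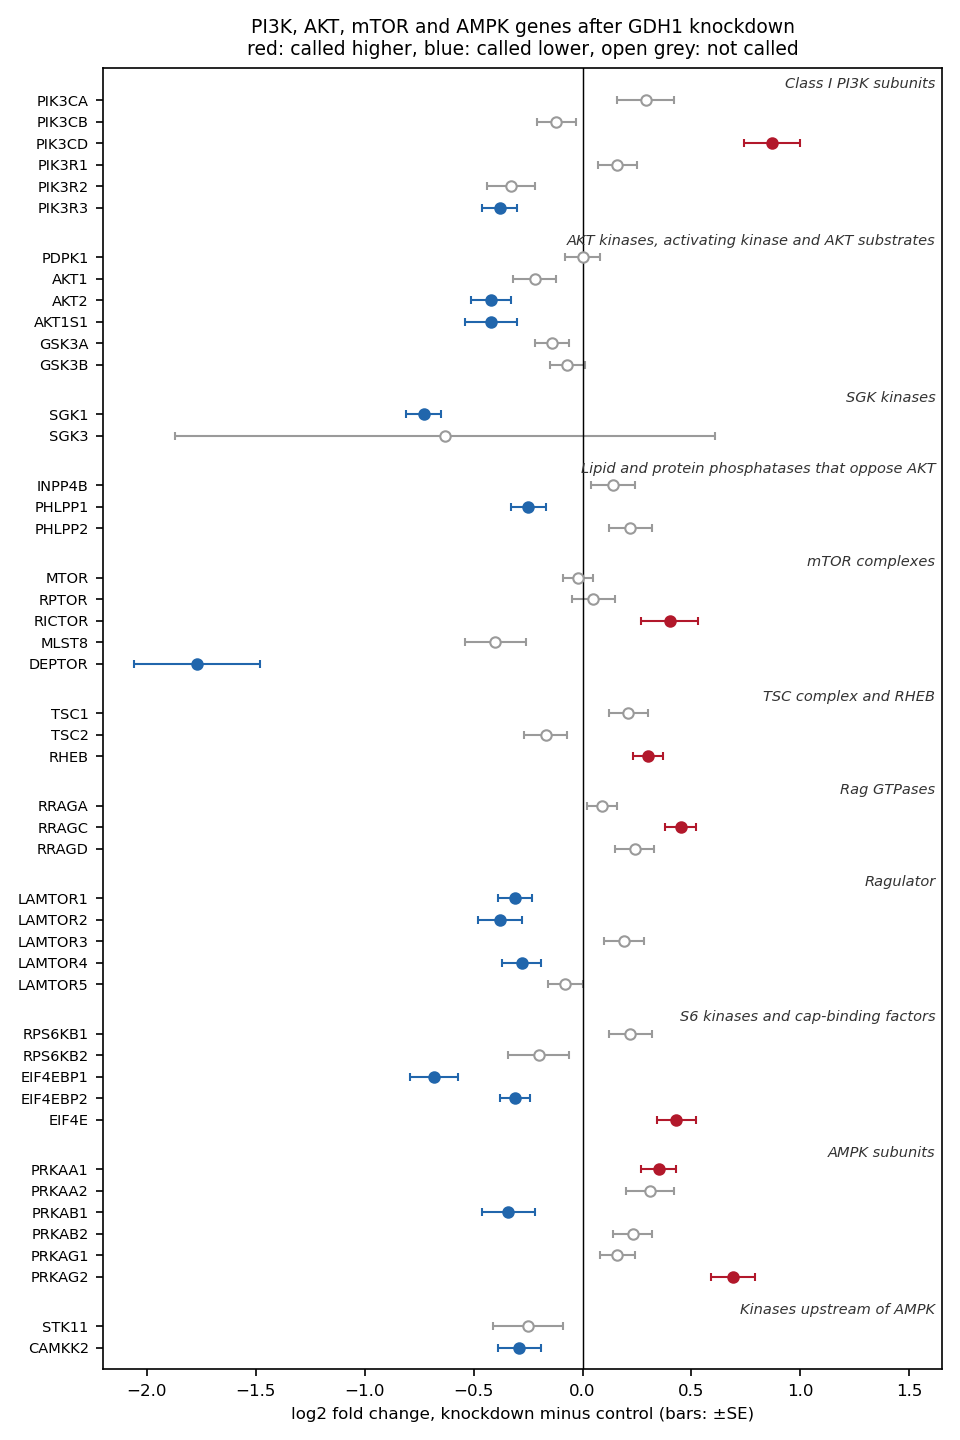
Log2 fold change of each of the 46 genes (x axis, knockdown minus control, bars are ±SE) grouped by role (y axis). Called genes are filled, 7 in red on the right and 13 in blue on the left, and DEPTOR stands farthest from 0 at -1.77.

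The counts moved with single libraries, and some single calls with the base composition of the transcripts. In knockdown replicates 2 and 3, transcripts in the lowest of 5 classes of GC content stood above those in the highest class by 0.47 and 0.75 on the log2 scale relative to the control mean, against 0.05 in knockdown replicate 1 and -0.12, 0.14 and -0.03 in control replicates 1 to 3. The members followed the same slope: the 7 that rose had a median GC content of 44.9% and the 13 that fell of 56.6%, with a Spearman correlation of GC content and fold change of -0.53 across the 46 (-0.45 across 12965 tested genes; genes of the same libraries, described with no p). With offsets that remove, library by library, the dependence on GC content and length, 9 members were higher and 12 lower, against 17.8% and 16.7% of all tested genes, and 17 of the 20 calls were kept in the same direction. PHLPP1, LAMTOR2 and LAMTOR4 lost their calls, while PIK3CB, GSK3B, RPTOR and TSC1 gained one. Without knockdown replicate 1, whose GC trend differed from that of the other knockdown libraries, 15 members were higher and 20 lower, but calls rose over the whole table as well, to 18.7% higher and 20.5% lower of all tested genes. With any other library left out the counts lay between 4 and 6 higher and between 6 and 9 lower, namely 4 higher and 6 lower without control replicate 3, 5 and 6 without control replicate 1, and 6 and 6 without knockdown replicate 2. In those 5 fits between 7.3% and 11.1% of all tested genes were higher and between 6.6% and 10.6% lower. The part of GC content in each call was not tested beyond these fits. Among the 20, PIK3CD, PIK3R3, AKT2, SGK1, DEPTOR, RRAGC, EIF4EBP1, EIF4EBP2, EIF4E and PRKAG2 kept their calls in each of the 17 other settings tried.

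**Figure D2:**
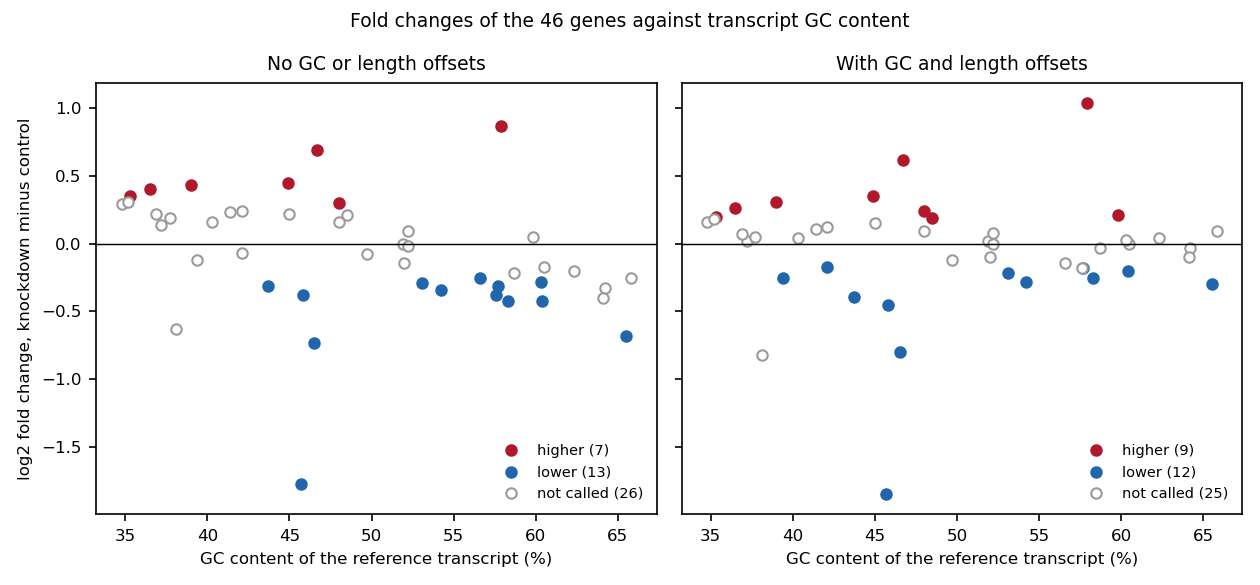
Log2 fold change of the 46 genes (y axis, knockdown minus control) against the GC content of a reference transcript (x axis, percent), without (left) and with (right) per-library offsets for GC content and length. Points of high GC content sit mostly below 0 on the left, and on the right the 9 higher and 12 lower genes are spread over the range of GC content.

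Among the PI3K subunits, the delta catalytic subunit rose and 1 regulatory subunit fell. PIK3CD, best known as the leukocyte catalytic subunit, had 13.7, 12.3 and 11.1 CPM in control replicates 1 to 3 and 26.3, 21.3 and 20.1 CPM in knockdown replicates 1 to 3. All knockdown libraries were above all controls, at 183.2% of the control mean (log2 fold change 0.87, SE 0.13, edgeR adjusted p = 6.03e-04), and the offsets for GC content and length gave 1.04. Of the 5 leukocyte markers, CD68 rose too (log2 fold change 0.88, adjusted p = 1.72e-04) and AIF1 was at 0 in all libraries. The other 3 were too low to test, with PTPRC at 0, 6 and 4 counts in controls and 9, 13 and 7 in the knockdown, ITGAM at 8, 2 and 6 against 0, 24 and 30, and CD3E at 0 in controls against 4, 0 and 10. The part of these markers in the PIK3CD level was not tested. PIK3R3, a regulatory subunit that binds phosphorylated receptors, had 52.6, 55.7 and 50.4 CPM in controls and 38.5, 40.4 and 43.5 CPM in the knockdown. Its groups did not overlap either, and the log2 fold change was -0.38 (SE 0.08, adjusted p = 0.00736).

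PIK3R2, the most abundant PI3K subunit transcript per length at 26.6 ± 0.775 RPKM (CPM per kilobase of reference transcript, mean ± SD, n = 3) in controls, had 109.6, 103.9 and 109.0 CPM in controls and 102.4, 83.6 and 71.3 CPM in the knockdown. All knockdown values were lower, with replicate 3 the lowest, but the log2 fold change of -0.33 did not pass (adjusted p = 0.0526). It passed without knockdown replicate 1 (-0.47, adjusted p = 1.21e-04) and with RLE or upper quartile scaling, no count filter, DESeq2, limma-voom or the replicate block, and was -0.03 with the GC and length offsets. PIK3CA (0.29), PIK3CB (-0.12) and PIK3R1 (0.16) did not pass, although PIK3CA (adjusted p = 0.00205) and PIK3R1 (0.0137) did without knockdown replicate 1 and PIK3CB did with the offsets (-0.25, adjusted p = 0.00122). In PIK3CA, 35.8% of the exonic sequence overlaps KCNMB3 on the opposite strand, and whether the counting used strand is not known. On the same strand, GENCODE genes with no row of their own in the table cover 87.2% of the exonic sequence of PIK3R2 and 17.4% of that of PIK3R3. Per length, PIK3CD made up 13.7 ± 0.997% of the class IA catalytic transcripts in controls and 22.5 ± 4.36% in the knockdown, while PIK3CB stayed the largest at 62.5 ± 0.678% and 51.5 ± 1.43%.

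**Figure D3:**
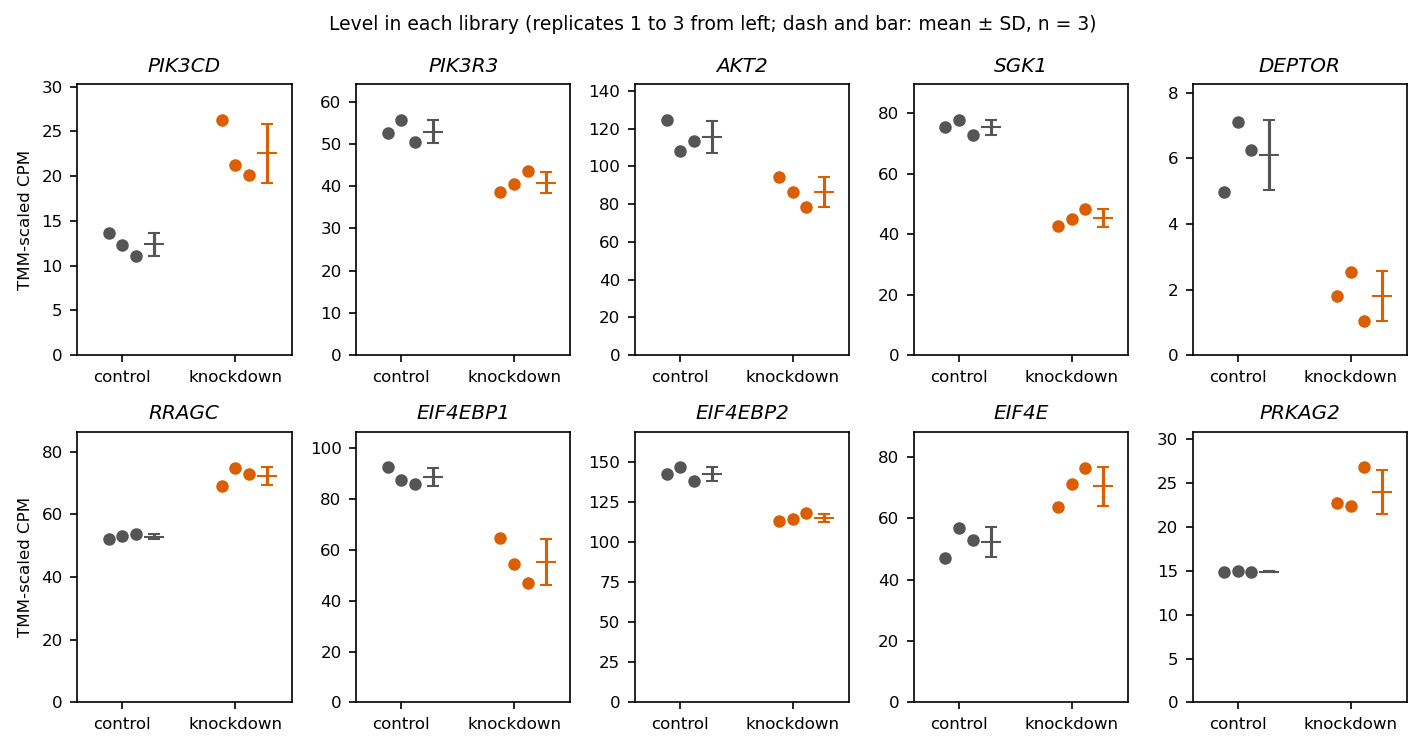
Level of the 10 genes whose calls held in every setting, in TMM-scaled CPM (y axis, from 0) in each of the 3 control and 3 knockdown libraries (points), with mean ± SD beside them. In each panel the control and knockdown points do not overlap: PIK3CD, RRAGC, EIF4E and PRKAG2 are higher and the other 6 lower in the knockdown.

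AKT2 and AKT1S1 fell, and PDPK1 and both GSK3 genes did not pass. AKT2, the AKT isoform tied to insulin-driven glucose uptake, had 124.7, 108.4 and 113.6 CPM in controls and 94.4, 86.6 and 78.4 CPM in the knockdown. The groups did not overlap (log2 fold change -0.42, SE 0.09, adjusted p = 0.00484), and the offsets for GC content and length brought it to -0.25 (adjusted p = 1.07e-04). AKT1S1 encodes PRAS40, an AKT substrate that inhibits mTORC1, and had 103.2, 87.6 and 93.7 CPM in controls and 84.9, 70.3 and 57.7 CPM in the knockdown. All knockdown values were lower, by a narrow margin between knockdown replicate 1 and control replicate 2 (log2 fold change -0.42, SE 0.12, adjusted p = 0.0297). The call was lost without control replicate 1 (adjusted p = 0.123), control replicate 3 (0.083) or knockdown replicate 2 (0.0896), and with the offsets the change was -0.20.

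AKT1, the most abundant of this group per length, had 217.3, 189.8 and 202.7 CPM in controls and 203.7, 163.2 and 158.0 CPM in the knockdown. Its groups overlapped, and the log2 fold change of -0.22 (adjusted p = 0.125) passed without knockdown replicate 1 (-0.34, adjusted p = 7.62e-04) and with the replicate block (adjusted p = 0.0317). AKT2 made up 21.7 ± 0.585% of AKT transcripts per length in controls and 18.8 ± 0.781% in the knockdown, beside AKT1 at 51.6 ± 1.34% and 51.5 ± 3.86%. PDPK1, the kinase that phosphorylates the activation loop of AKT, was at 70.3 ± 4.77 and 70.4 ± 3.33 CPM (log2 fold change 0.00, SE 0.08). GSK3A (-0.14) and GSK3B (-0.07), kinases that AKT inhibits, did not pass. GSK3A passed without knockdown replicate 1 (-0.20, adjusted p = 0.0452) and GSK3B with the offsets (-0.17, adjusted p = 0.00307).

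SGK1, a kinase related to AKT that RICTOR-containing mTOR complexes activate and whose transcript turns over fast, had the smallest p of the 46. It had 75.4, 77.8 and 72.9 CPM in controls and 42.8, 44.9 and 48.4 CPM in the knockdown. The knockdown libraries stood well below the controls, at 60.2% of their mean (log2 fold change -0.73, SE 0.08, adjusted p = 6.72e-05), and the offsets gave -0.80. SGK3, its endosomal relative, had 609, 653 and 618 counts in controls and 0, 603 and 667 in the knockdown. The 0 in knockdown replicate 1 allows up to 0.0861 CPM in the SGK3 row alone and does not bound the level of the gene. It came with 538 counts in the row of the readthrough transcript C8orf44-SGK3, which had 27 to 83 counts in the other libraries. With both rows added, a setting chosen after seeing the data, the libraries had 643, 696 and 701 counts against 538, 666 and 694, and the log2 fold change went from -0.63 (SE 1.24) to -0.17 (SE 0.12, adjusted p = 0.334). Without knockdown replicate 1 it was -0.04.

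Of the phosphatases that oppose AKT signalling, PHLPP1 fell slightly. PHLPP1, which removes an activating phosphate from AKT, had 59.4, 52.4 and 52.8 CPM in controls and 48.1, 45.4 and 45.0 CPM in the knockdown. The values did not overlap, but the change was the smallest of the 20 called (log2 fold change -0.25, SE 0.08, adjusted p = 0.0465). The call was kept only when knockdown replicate 1 was the library left out: the adjusted p was 0.227, 0.079 and 0.106 without control replicates 1, 2 and 3 and 0.153 and 0.0816 without knockdown replicates 2 and 3. The offsets gave -0.14 (adjusted p = 0.0687), and upper quartile scaling (0.0531), no count filter (0.0534) and separate rows (0.0577) lost the call too. PHLPP2, its close relative, was at 0.22 and passed without knockdown replicate 1 (0.28, adjusted p = 0.0428), and the inositol phosphatase gene INPP4B was at 0.14 without passing.

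In the mTOR complexes, the inhibitor DEPTOR fell most of all 46 genes while the kinase itself stayed level. DEPTOR, which binds and inhibits mTOR in both complexes, had 171, 223 and 205 counts in controls and 63, 85 and 36 in the knockdown. These were 4.96, 7.09 and 6.24 CPM against 1.81, 2.54 and 1.03 CPM, so that 29.4% of a low control level was left. The groups were far apart (log2 fold change -1.77, SE 0.29, adjusted p = 0.00114), and over the other settings the change ran from -2.10 to -1.49. RICTOR, the defining subunit of the second complex, had 40.8, 35.7 and 33.6 CPM in controls and 38.3, 51.4 and 55.1 CPM in the knockdown. Knockdown replicate 1 lay within the control range, and the call (log2 fold change 0.40, SE 0.13, adjusted p = 0.0443) was lost without any 1 library other than knockdown replicate 1. The adjusted p was then 0.0543, 0.116 and 0.162 without control replicates 1 to 3, and 0.149 and 0.114 without knockdown replicates 2 and 3. Limma-voom (0.0573) and separate rows (0.0647) lost the call too.

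RPTOR, the subunit that brings substrates to mTORC1 and the most abundant of this group per length, had 332.7, 301.9 and 308.2 CPM in controls and 385.6, 309.8 and 281.3 CPM in the knockdown. The groups overlapped, with knockdown replicate 1 highest and replicate 3 lowest of the 6 libraries (log2 fold change 0.05, SE 0.10), and the offsets gave 0.21 (adjusted p = 3.25e-04). MTOR was at 127.6 ± 3.13 CPM in controls and 125.7 ± 6.7 CPM in the knockdown, a log2 fold change of -0.02 (SE 0.07). MLST8, a subunit of both complexes, was lower in all knockdown libraries at 41.5 ± 9.16 against 54.7 ± 2.36 CPM, without passing (-0.40, adjusted p = 0.0526). It passed without knockdown replicate 1 (-0.55, adjusted p = 0.00109), with the replicate block (adjusted p = 0.00351), DESeq2, limma-voom, upper quartile scaling or no count filter, and was -0.10 with the offsets.

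RHEB rose, while TSC1 and TSC2, genes of the TSC complex that restrains it, did not pass. RHEB, the direct activator of mTORC1 and the most abundant of the 3 per length, had 110.6, 123.6 and 115.7 CPM in controls and 144.6, 137.7 and 147.7 CPM in the knockdown. All knockdown libraries were above the controls (log2 fold change 0.30, SE 0.07, adjusted p = 0.0107). The call was lost without control replicate 1 (adjusted p = 0.0649) or control replicate 3 (0.0575), and kept with the offsets (0.24). TSC1 was at 0.21 (adjusted p = 0.0898), with the 3 knockdown libraries above the controls, and passed with the offsets (0.19, adjusted p = 0.0316). TSC2 was at -0.17 and passed without knockdown replicate 1 (-0.29, adjusted p = 0.00316), but was at 0 with the offsets.

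Among the Rag GTPase genes RRAGC rose, while RRAGA and RRAGD did not pass. RRAGC, a Rag that pairs with RRAGA, had 52.0, 53.1 and 53.6 CPM in controls and 69.1, 74.7 and 72.9 CPM in the knockdown. Controls were tightly grouped and all knockdown libraries stood above them at 136.6% of the control mean (log2 fold change 0.45, SE 0.07, adjusted p = 0.00118, and 0.35 with the offsets). A same-strand transcript with no row of its own covers 22.9% of the exonic sequence of RRAGC. RRAGA, the most abundant Rag transcript per length, had 105.1, 111.7 and 108.2 CPM in controls and 120.6, 114.6 and 110.9 CPM in the knockdown, with overlapping groups (0.09, SE 0.07). RRAGD, the other partner of RRAGA, was higher in all knockdown libraries at 47.5 ± 3.75 against 40.3 ± 2.06 CPM but did not pass (0.24, adjusted p = 0.0712), except without knockdown replicate 1 (0.3, adjusted p = 0.00661).

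Of the 5 Ragulator subunits, LAMTOR1, LAMTOR2 and LAMTOR4 fell. LAMTOR1, the lipid-anchored scaffold, had 109.9, 105.6 and 112.9 CPM in controls and 98.5, 86.0 and 80.8 CPM in the knockdown (log2 fold change -0.31, SE 0.08, adjusted p = 0.0195). LAMTOR2 had 29.1, 26.3 and 31.4 CPM in controls and 23.1, 22.4 and 21.0 CPM in the knockdown (-0.38, SE 0.10, adjusted p = 0.0144). LAMTOR4, the most abundant per length, had 58.0, 55.1 and 62.1 CPM in controls and 52.0, 48.5 and 44.1 CPM in the knockdown (-0.28, SE 0.09, adjusted p = 0.0382). An opposite-strand gene covers 18.4% of its exonic sequence. For all 3 the groups did not overlap. The GC content of their reference transcripts is 57.7%, 57.6% and 60.3%, and with the offsets LAMTOR1 stayed called at -0.18, LAMTOR2 did not pass at -0.18 (adjusted p = 0.0816) and LAMTOR4 was at 0.03 (adjusted p = 0.713). LAMTOR1 lost its call without control replicate 1 (adjusted p = 0.0756), control replicate 3 (0.096) or knockdown replicate 2 (0.0915). LAMTOR2 lost its call without the same libraries, at 0.06, 0.091 and 0.0539. When a library was left out LAMTOR4 kept its call only without knockdown replicate 1, and its adjusted p was 0.113, 0.0599 and 0.178 without control replicates 1 to 3 and 0.114 and 0.0935 without knockdown replicates 2 and 3, with 0.0519 for separate rows. LAMTOR3 (0.19) and LAMTOR5 (-0.08), with transcripts of 37.7% and 49.7% GC, did not pass, although LAMTOR3 did without knockdown replicate 1 (0.25, adjusted p = 0.0336).

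The bases before the start of 4 called genes are shown because these genes carry the motif CACGTG. It is the core of the E-box that MYC, USF and the lysosomal regulators TFEB and TFE3 bind. They are the 250 bases upstream of the RefSeq gene start on GRCh38.p14, 5′ to 3′ on the strand of the gene, with CACGTG in capitals.
RRAGC, chr1:38859773-38860022, minus strand: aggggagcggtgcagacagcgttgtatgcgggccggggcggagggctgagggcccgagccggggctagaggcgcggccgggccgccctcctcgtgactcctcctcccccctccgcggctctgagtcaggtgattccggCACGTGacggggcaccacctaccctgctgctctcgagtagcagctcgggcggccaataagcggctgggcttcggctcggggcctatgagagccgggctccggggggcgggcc
EIF4E, chr4:98929134-98929383, minus strand: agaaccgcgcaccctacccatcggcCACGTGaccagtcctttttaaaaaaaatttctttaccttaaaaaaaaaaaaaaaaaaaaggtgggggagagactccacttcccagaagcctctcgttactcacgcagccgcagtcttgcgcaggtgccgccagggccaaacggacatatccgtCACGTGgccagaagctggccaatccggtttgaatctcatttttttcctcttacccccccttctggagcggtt
LAMTOR1, chr11:72103298-72103547, minus strand: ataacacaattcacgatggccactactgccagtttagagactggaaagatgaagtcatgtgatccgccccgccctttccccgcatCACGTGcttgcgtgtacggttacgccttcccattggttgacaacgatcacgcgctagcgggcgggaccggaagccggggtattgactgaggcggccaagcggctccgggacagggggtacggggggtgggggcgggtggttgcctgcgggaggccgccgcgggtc
LAMTOR4, chr7:100148668-100148917, plus strand: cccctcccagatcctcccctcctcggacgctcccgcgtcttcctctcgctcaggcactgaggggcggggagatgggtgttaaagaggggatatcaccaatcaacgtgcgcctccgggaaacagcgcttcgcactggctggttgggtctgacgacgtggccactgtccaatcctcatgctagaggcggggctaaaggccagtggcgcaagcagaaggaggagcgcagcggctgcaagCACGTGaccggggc

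In the main fit RRAGC and EIF4E were called higher, and LAMTOR1 and LAMTOR4 lower. LAMTOR1 lost its call in 3 of 17 other settings and LAMTOR4 in 8, and LAMTOR4 was at 0.03 with the GC and length offsets. The motif begins at position -112 relative to the start in RRAGC, -165 in LAMTOR1 and -14 in LAMTOR4, and at -225 and -72 in EIF4E. Upstream sequence matched 39 of the 46 genes by symbol (AKT1S1, SGK3, MLST8, DEPTOR, RRAGA, RRAGD and EIF4EBP1 were not matched), and 5 of the 39 held CACGTG, the other being TSC2, against 6.49% of 27305 upstream windows of the same length. The palindrome reads the same on both strands. The longer form GTCACGTGA, typical of lysosomal genes, was found in TSC2 alone (0.773% of all windows). On either strand, the ATF4-type core TGATGNAA was in TSC2 (3.19% of all windows), the FOXO-type TGTTTAC in PIK3CA (2.98%) and the sterol element TCACNCCAC in 0 of 39 (0.875%). The hypoxia-type core ACGTG, which lies within CACGTG, was in 12 of 39 (18.7% of all windows): 4 of the 7 that rose, 5 of 10 that fell and 3 of 22 not called. A match describes these letters only and does not show binding.

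Downstream of mTORC1, the eIF4E-binding protein genes EIF4EBP1 and EIF4EBP2 fell while EIF4E rose. Another gene of this family, EIF4EBP3, was too low to test, with 6, 3 and 2 counts in controls and 7, 8 and 4 in the knockdown. EIF4EBP1, which encodes the best-studied translational repressor under mTORC1 control, had 92.6, 87.4 and 86.1 CPM in controls and 64.7, 54.4 and 46.8 CPM in the knockdown. The knockdown libraries were all lower, at 62.3% of the control mean (log2 fold change -0.68, SE 0.11, adjusted p = 8.93e-04). Its reference transcript has 65.5% GC, and with the offsets the change was -0.30 (adjusted p = 6.76e-05). EIF4EBP2, the second repressor of this kind, had 142.6, 146.8 and 138.0 CPM in controls and 113.1, 114.7 and 117.9 CPM in the knockdown. It fell evenly across the libraries (-0.31, SE 0.07, adjusted p = 0.00635), and with 43.7% GC in its transcript the offsets gave -0.39.

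EIF4E, which encodes the cap-binding protein itself, had 47.2, 56.8 and 53.0 CPM in controls and 63.7, 71.0 and 76.3 CPM in the knockdown. All knockdown libraries were above all controls (log2 fold change 0.43, SE 0.09, adjusted p = 0.00715, and 0.31 with the offsets). The ratio of EIF4EBP1 to EIF4E counts per length, in which the library scaling cancels, was 22.2, 17.4 and 18.4 in controls and 11.5, 8.65 and 6.93 in the knockdown. That of EIF4EBP2 to EIF4E came to 4.34 ± 0.391 for the 3 controls and 2.61 ± 0.186 for the 3 knockdown libraries. Neither ratio overlapped between the groups, which follows from the changes of the genes themselves. The EIF4EBP1 to EIF4E ratio sets a transcript of 65.5% GC against 1 of 39% GC, and in the knockdown it was highest in replicate 1, where the GC gap was smallest, and lowest in replicate 3, where it was largest. The part of GC content in it was not tested. The S6 kinase genes RPS6KB1 (0.22) and RPS6KB2 (-0.20) did not pass. Both passed without knockdown replicate 1, at 0.31 (adjusted p = 0.0049) and -0.37 (0.0148), and with the offsets they were at 0.07 and 0.04.

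**Figure D4:**
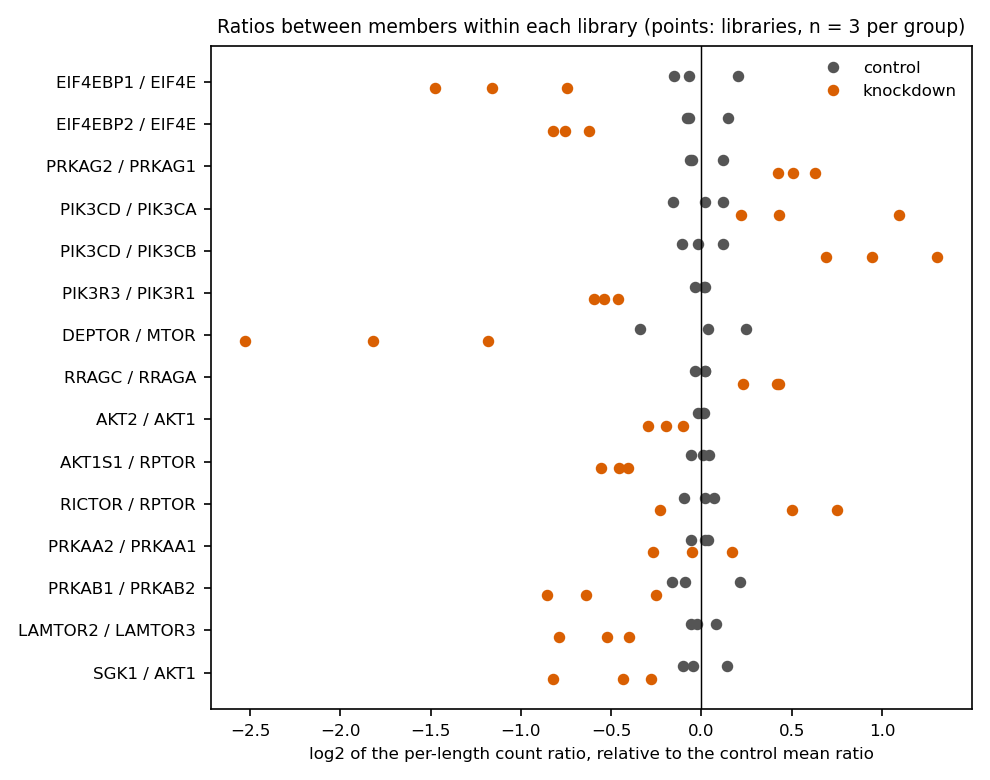
Ratio of the per-length counts of 2 genes within each library (x axis, log2, relative to the control mean ratio) for 15 pairs (y axis), with 3 control and 3 knockdown libraries as points. The groups do not overlap for 13 pairs, EIF4EBP1 to EIF4E and DEPTOR to MTOR among them, and overlap for RICTOR to RPTOR and PRKAA2 to PRKAA1. The pairs were chosen after their values were seen, and the share over other gene pairs was not computed. The count is therefore a description only.

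The ratios, pairs of partners or paralogs chosen after their values were seen, are given as a description with no test, since 3 libraries against 3 cannot give an exact permutation p under 0.1. PIK3R3 to PIK3R1 was 0.868 ± 0.0183 in controls and 0.601 ± 0.0285 in the knockdown, and RRAGC to RRAGA was 0.284 ± 0.00657 and 0.365 ± 0.0276. AKT1S1 to RPTOR went from 0.531 ± 0.0181 to 0.383 ± 0.0198, for transcripts of like GC content (60.4% and 59.8%). These 3 pairs did not overlap between groups. PRKAA2 to PRKAA1 did overlap, at 0.0995 ± 0.00338 and 0.0967 ± 0.0146.

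Of the AMPK subunits, PRKAG2 and PRKAA1 rose and PRKAB1 fell. PRKAG2, a nucleotide-binding gamma subunit, had 14.9, 15.0 and 14.8 CPM in controls and 22.7, 22.4 and 26.8 CPM in the knockdown. Controls were close together and every knockdown library was above them, at 160.8% of the control mean (log2 fold change 0.69, SE 0.10, adjusted p = 7.2e-04, and 0.62 with the offsets). PRKAG1, the gamma subunit that dominates this line and the most abundant AMPK transcript per length, had 68.9, 78.5 and 77.9 CPM in controls and 80.8, 83.8 and 87.1 CPM in the knockdown, without passing (0.16, adjusted p = 0.155). PRKAG2 thereby went from 9.28 ± 0.621% to 12.8 ± 0.807% of these gamma transcripts per length.

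PRKAA1, the main catalytic subunit gene here, had 95.5, 97.5 and 91.7 CPM in controls and 109.2, 121.4 and 133.2 CPM in the knockdown. All knockdown libraries were higher (log2 fold change 0.35, SE 0.08, adjusted p = 0.00905). Its transcript has 35.3% GC and the offsets gave 0.20 (adjusted p = 6.77e-04), and the call was lost without control replicate 3 (adjusted p = 0.0565). PRKAB1, a glycogen-binding beta subunit, had 26.8, 32.3 and 26.0 CPM in controls and 25.1, 21.9 and 20.1 CPM in the knockdown. The groups nearly touched (-0.34, SE 0.12, adjusted p = 0.048), and the call held only without knockdown replicate 1 when a library was left out. The adjusted p was otherwise 0.0912, 0.202 and 0.0761 without control replicates 1 to 3, and 0.146 and 0.115 without knockdown replicates 2 and 3. It was also lost with upper quartile scaling (0.0507), limma-voom (0.0526) and separate rows (0.0721). PRKAB2 (0.23, adjusted p = 0.0704) and PRKAA2 (0.31, adjusted p = 0.0685) were higher in all knockdown libraries and did not pass, except without knockdown replicate 1 (adjusted p = 0.00266 and 0.0104). The groups did not overlap for any of the 6 subunits, PRKAB1 being the 1 that was lower, where 42.0% of all tested genes did not overlap, and 3 of the 6 did not pass the test.

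Upstream of AMPK, CAMKK2, the calcium-dependent kinase that can activate it, had 27.0, 28.1 and 29.1 CPM in controls and 24.0, 24.1 and 20.8 CPM in the knockdown. The knockdown libraries were all lower (log2 fold change -0.29, SE 0.10, adjusted p = 0.0448), and the offsets kept the call (-0.22). Upper quartile scaling (adjusted p = 0.0512), no count filter (0.0522) and separate rows (0.0641) lost it. It was lost without any 1 library other than knockdown replicate 1, with an adjusted p of 0.1, 0.113 and 0.167 without control replicates 1 to 3 and 0.0904 and 0.129 without knockdown replicates 2 and 3. STK11, which encodes the tumour suppressor LKB1, the main activating kinase of AMPK, had 74.7, 54.6 and 69.1 CPM in controls and 69.9, 50.7 and 46.3 CPM in the knockdown. The groups overlapped (-0.25, SE 0.16, adjusted p = 0.274), and STK11 passed without knockdown replicate 1 (-0.44, adjusted p = 0.0068) and with the replicate block (adjusted p = 0.0459). With 65.8% GC, the highest of the 46, it was at 0.09 with the offsets.

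Another 83 genes of the same pathways, listed by role, were read from the same fit. Of the 77 tested, 10 rose and 15 fell, 32.5% against 26.1% of all tested genes. These lists too were drawn up with earlier results of the data known, so the shares are a description. Among 24 genes of amino acid sensing upstream of the Rag GTPases, 1 rose and 3 fell, or 16.7%, below the share of all tested genes. FNIP1, partner of the RRAGC activator folliculin, was at 63.5 ± 2.98 CPM in controls and 89.9 ± 12.3 CPM in the knockdown (0.50, adjusted p = 0.00382). SESN2, a leucine sensor that restrains mTORC1, fell from 36.1 ± 4.06 to 20.9 ± 3.73 CPM (-0.79, adjusted p = 0.00155), and the arginine sensor gene CASTOR1 fell from 4.78 ± 0.737 to 2.43 ± 0.340 CPM (-0.98, adjusted p = 0.00522). SESN2 has several rows in the table, which were summed here. WDR59, a GATOR complex subunit in the same list, fell by 0.32 on the log2 scale. It lost its call without any 1 control (adjusted p = 0.0625, 0.0558 and 0.0869) or knockdown replicate 2 (0.0877). Without knockdown replicate 1, 4 genes of the list rose and 6 fell, where 18.7% of all tested genes were higher and 20.5% lower. Without knockdown replicate 3, 2 rose, where 11.1% of all tested genes were higher.

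Of 12 partners and inhibitors of the mTOR complexes, 4 rose and 3 fell, or 58.3% against 26.1% of all tested genes. PRR5 and PRR5L encode paralogs that bind RICTOR and moved in opposite directions: PRR5 fell from 4.02 ± 0.853 to 1.7 ± 0.489 CPM (-1.24, adjusted p = 0.00568) and PRR5L rose from 5.64 ± 0.998 to 9.45 ± 1.26 CPM (0.74, adjusted p = 0.00715). TELO2, part of the chaperone that assembles mTOR kinases, fell by 0.66 on the log2 scale (-0.31 with the offsets), and GRB10, an adaptor that dampens insulin signalling, rose by 0.31. Leaving out control replicate 1, control replicate 2, knockdown replicate 2 or knockdown replicate 3 left 2 genes that rose. In those fits 7.3% to 11.1% of all tested genes were higher. Of 14 tested genes of other PI3K and AKT functions, 3 fell and 0 rose, or 21.4%, below the share of all tested genes. Without knockdown replicate 1, 2 were higher, where 18.7% of all tested genes were higher. With the offsets 1 was higher and 5 lower, against 17.8% and 16.7% of all tested genes. TRIB3, a pseudokinase that can bind AKT, fell from 71.0 ± 2.42 to 35.2 ± 6.09 CPM (-1.01, adjusted p = 1.04e-04) and the inositol phosphatase gene INPP5K by 0.44. PIK3C2B, a class II PI3K gene, fell by 0.42 on the log2 scale and lost its call without control replicate 1 (adjusted p = 0.16) or 3 (0.128) or knockdown replicate 2 (0.157) or 3 (0.0565), and with separate rows (0.0558).

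Among 13 tested effectors of mTORC1, 3 rose and 4 fell, or 53.8% against 26.1% of all tested genes. PDCD4, a translation inhibitor that S6 kinase marks for breakdown, fell from 42.8 ± 4.98 to 24.0 ± 3.19 CPM (-0.84, adjusted p = 4.58e-04). The autophagy-initiating kinase gene ULK1 fell from 50.6 ± 3.43 to 31.9 ± 3.67 CPM (-0.67, or -0.39 with the offsets). RPS6, the ribosomal protein that S6 kinases phosphorylate, rose from 675.1 ± 38.5 to 835.9 ± 18.1 CPM (0.31, adjusted p = 0.00469). The helicase gene EIF4A1 rose by 0.23 on the log2 scale and lost its call without control replicate 1 (adjusted p = 0.0679) or 3 (0.0511) or knockdown replicate 2 (0.0646). Leaving out any 1 of these 3 libraries left 1 higher and 2 lower genes in the list. In those fits 7.3% to 7.5% of all tested genes were higher and 6.6% to 7.1% lower. Leaving out knockdown replicate 1 gave 7 lower in the list, where 20.5% of all tested genes were lower.

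Of 14 tested regulators and substrates of AMPK, 2 rose and 2 fell, or 28.6%, near the 26.1% of all tested genes. TBC1D4, a Rab regulator that both AKT and AMPK phosphorylate, fell from 55.4 ± 2.88 to 21.4 ± 1.08 CPM (-1.37, SE 0.09, adjusted p = 1.47e-06). ACACA, the acetyl-CoA carboxylase gene whose product AMPK inhibits, fell from 141.4 ± 4.37 to 86.1 ± 2.19 CPM (-0.72, adjusted p = 2.34e-05). CAB39, the scaffold of the LKB1 complex, rose from 109.7 ± 8.32 to 141.8 ± 10.5 CPM (0.37, adjusted p = 0.00711), and lost its call without control replicate 3 (0.0515). Its paralog CAB39L rose by 0.41 on the log2 scale and kept its call only without knockdown replicate 1 when a library was left out (adjusted p = 0.157, 0.0504 and 0.145 without control replicates 1 to 3, 0.0751 and 0.154 without knockdown replicates 2 and 3). It also lost it with the offsets (0.30, adjusted p = 0.0533), their fit with the replicate block (0.0628), limma-voom (0.051) and separate rows (0.061). The number that rose was 0 without control replicate 3, and 1 without any 1 of the other libraries apart from knockdown replicate 1. In these fits 7.3% to 11.1% of all tested genes were higher.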

How the data were processed

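The submitters sequenced RNA of 6 LN229 libraries, 3 control and 3 knockdown, grouped by genotype label and numbered by title. The authors deposited 1 table of whole-number counts per gene row, with no normalization, judging by the values. The submitters' processing notes name the build GRCh38.p14. Aligner, counter and strandedness: not given in the sources used here. Rows of the same symbol were summed over the whole table (1634 symbols had several rows, none of them a member), and 4956 newly assembled loci, 1.20 to 1.30% of counts, stayed as rows.

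Genes were filtered with filterByExpr, TMM-scaled and tested in edgeR 4.0.16 (R 4.3.3) by quasi-likelihood (robust, two-sided, Benjamini-Hochberg over all 15638 tested genes, threshold 0.05). SE is |log2 fold change| over the root of F. Levels per length used 1 GENCODE 29 transcript per gene. Offsets for GC content and length were per-library loess surfaces (span 0.5) of log2 CPM (prior count 2), available for 82.9% of tested genes and all 46 members. The other settings were RLE or upper quartile scaling, no count filter or a minimum of 1 CPM in 3 samples, limma-voom (limma 3.58.1), DESeq2 1.42.0, the replicate block, unsummed rows and each library left out. Promoter sequences are RefSeq's (GRCh38.p14).

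The members and gene lists were chosen with earlier results of these data known. Values in every library are given for members called and for the most abundant per length of each role; from each other list, up to 4 called genes with the smallest p are named. Depth of 31201100 to 35619614 counts sets the precision of single values, counting error only; the common biological coefficient of variation was 0.111.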

Additional observations from a re-analysis of the deposited data

How the results depend on the processing

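With 1 library left out, the number of all genes called ran from 2216 to 6236 around 4085, members higher from 4 to 15 around 7, and members lower from 6 to 20 around 13. The GLUD1 log2 fold change ran from -1.88 to -1.71. The highest counts came without knockdown replicate 1. LAMTOR4 was the 1 called gene whose sign turned: it was at 0.03 with the GC and length offsets, with or without the replicate block, and GC content and length are what those offsets remove. Of 20 called members, 10 kept their calls in all 17 settings. Among 1122 pairs of a named gene and a setting, 14 had a change of sign where neither value was called.

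Same-numbered libraries had correlations of their deviations from the group means of 0.07, 0.02 and -0.02. Libraries of different number ran from -0.09 to 0.07. So few libraries cannot decide whether the numbers pair them, and the main fit used no pairing. The replicate block gave 4791 called genes, 7 members higher and 17 lower, against 14.5% and 16.1% of all tested genes. The block with the offsets gave 9 and 12, against 17.8% and 16.9%. With unsummed rows 3454 rows were called, with 6 members higher and 9 lower, against 10.7% and 10.1% of all tested rows. DESeq2 called 7 and 15, against 13.9% and 14.5% of all tested genes.

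DEPTOR rests on 36 to 223 counts per library. RNA counts cannot show protein amount or phosphorylation, where most of this network is controlled.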
